A study of Rattus norvegicus with 6 samples.

Results

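The genes described here import proteins into mitochondria, shape the mitochondrial network, or copy and transcribe mitochondrial DNA. They were the protein-coding genes of the deposited count table whose symbol is Timm or Tomm followed by a digit, and 21 genes given by name (Tfam, Tfb1m, Tfb2m, Polg, Polg2, Polrmt, Twnk, Ssbp1, Mfn1, Mfn2, Opa1, Dnm1l, Fis1, Mff, Pink1, Phb, Phb2, Lonp1, Clpp, Clpx and Nrf1). This rule found 43 of the 18746 genes in the table, with 41 symbols, because Mff and Timm8a1 are each listed under 2 identifiers. The rule used names and no measured value, but the members were chosen with earlier results of these data known. Of the 43, 40 passed a filter on low counts and were tested. Mfn2 (0 to 3 reads per library), Timm8a2 (2 to 13 reads) and the second identifier of Mff (0 to 9 reads) did not pass it. Twnk was not matched, since the table lists this DNA helicase under its older symbol Peo1, and Timm23, Timm29 and Tomm5 were not analysed here.

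The study lowered NQO1, a quinone reductase, in the rat line PC12 and sequenced polyadenylated RNA, to find genes whose expression depends on NQO1. There were 3 siNQO1 libraries and 3 siCtrl libraries, all from PC12 cells. In the paper, siNQO1 cells received a short interfering RNA against NQO1 and siCtrl cells a nontargeting one, while the sample labels name an shRNA and a control plasmid. The paper treats the 3 samples of a group as biological replicates but does not describe separate cultures, and a p-value here covers only the spread between these samples.

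Most mitochondrial proteins are made in the cytosol and carried inward. The TOM complex is the gate of the outer membrane, small TIM chaperones escort hydrophobic proteins across the space between the membranes, and the TIM22 and TIM23 complexes insert proteins into the inner membrane or pass them to the matrix. Mitochondria fuse through mitofusins and Opa1 and divide through Dnm1l, and their own small genome is packaged by Tfam, copied by Polg and transcribed by Polrmt, while Nrf1 in the nucleus activates many of the nuclear genes that serve them.

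Reads counted in genes ran from 32789228 to 39467230 in siNQO1 and from 28873824 to 35235040 in siCtrl. Nqo1 itself was at 75.2 to 80.8 FPKM in siNQO1, against 320.5 to 368.6 FPKM in siCtrl, so the targeted gene bears out the group labels. FPKM are reads scaled for transcript length and library size, as the authors calculated them. The markers of PC12 and chromaffin cells were near 0. All 7 of them in the table (Th, Dbh, Chga, Chgb, Phox2a, Slc18a1 and Ddc) stayed at or below 0.12 FPKM, with a sum of 0.26 to 0.34 in siNQO1 and 0.22 to 0.31 in siCtrl. The 5 Schwann cell markers summed to 511.1 to 516.3 FPKM in siNQO1 and to 528.5 to 602.0 FPKM in siCtrl, led by Sox10 and S100b, and 2 of them were higher and 1 was lower in siNQO1. The lists of fibroblasts (46.4 to 49.7 FPKM in siNQO1, 50.9 to 51.7 in siCtrl, almost all of it Pdgfra), endothelium (1.06 to 1.10 and 0.96 to 1.23) and leukocytes (2.48 to 3.38 and 2.93 to 4.46) held no called gene. The label PC12 is thus not borne out by its markers, and whether the cells' identity bears on the results was not tested. In bulk RNA, fewer cells of a type and less RNA per cell cannot be told apart. For the members, 1 library lay further from its group than the others. In siCtrl replicate 2 the 40 members lay a median of 0.11 in log2 CPM (reads scaled for library size) from their siCtrl mean, against 0.06 and 0.05 in siCtrl replicates 1 and 3. Over all genes tested the median distances were 0.08, 0.11 and 0.07 in siCtrl replicates 1, 2 and 3. For the 13 protein genes of the mitochondrial genome they were 0.36, 0.39 and 0.04, so siCtrl replicate 1 lay nearly as far there. Values without siCtrl replicate 2 are given beside the results. In the edgeR fit without it, 33.3% of all genes had an adjusted p under 0.05, against 12.6% with all libraries.

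The RefSeq sequences (build GRCr8) of the 250 bases before the start of the 4 members that passed the test, Tomm6, Tomm7, Timm9 and Nrf1, are shown because these genes carry the differences described below. Capitals mark 2 motifs, searched on both strands: GCGCATGCG, a core of the palindrome that NRF1 binds, and CGGAAGT, a core bound by ETS factors such as GABP.
Tomm6, chr9:20801556-20801805, plus strand: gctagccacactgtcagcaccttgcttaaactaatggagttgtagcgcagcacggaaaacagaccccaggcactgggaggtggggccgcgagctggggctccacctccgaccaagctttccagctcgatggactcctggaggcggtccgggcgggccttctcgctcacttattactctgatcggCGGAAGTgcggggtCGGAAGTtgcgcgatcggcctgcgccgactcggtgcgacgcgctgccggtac
Tomm7, chr4:12197253-12197502, plus strand: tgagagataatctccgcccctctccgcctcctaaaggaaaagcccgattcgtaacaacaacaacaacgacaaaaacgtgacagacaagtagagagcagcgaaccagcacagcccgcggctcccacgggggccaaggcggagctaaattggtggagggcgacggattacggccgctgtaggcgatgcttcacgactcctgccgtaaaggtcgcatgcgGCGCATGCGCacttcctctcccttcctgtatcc
Timm9, chr6:95358896-95359145, minus strand: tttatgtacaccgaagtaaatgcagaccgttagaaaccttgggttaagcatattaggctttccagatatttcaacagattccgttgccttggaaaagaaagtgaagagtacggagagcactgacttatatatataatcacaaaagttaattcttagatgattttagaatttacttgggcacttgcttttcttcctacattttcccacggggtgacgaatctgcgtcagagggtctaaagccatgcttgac
Nrf1, chr4:59632176-59632425, plus strand: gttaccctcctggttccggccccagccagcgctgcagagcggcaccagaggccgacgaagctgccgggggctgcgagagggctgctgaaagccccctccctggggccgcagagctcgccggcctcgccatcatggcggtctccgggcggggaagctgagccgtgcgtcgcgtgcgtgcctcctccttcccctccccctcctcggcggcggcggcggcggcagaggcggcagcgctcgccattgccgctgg

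The window of Tomm7 held the NRF1 core on both strands in 2 overlapping matches, at 33 to 25 and 32 to 24 bases before the start. That of Tomm6 held the ETS core at 66 to 60 and at 52 to 46 bases before the start, and those of Timm9 and Nrf1 held neither motif. Of the 41 member symbols, 37 had a window in the RefSeq table. The NRF1 core was in 2 of them (5.41%), Tfb2m and Tomm7, and in 1.35% of all 33469 windows of genes of every kind. The ETS core was in 15 (40.5%), Clpp, Mfn1, Opa1, Phb2, Polg, Tfam, Tfb2m, Timm10, Timm10b, Timm13, Timm17a, Timm8a2, Tomm20, Tomm6 and Tomm70a, and in 5.22% of all windows. These are matches of letters and no measured binding.

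After NQO1 knockdown, most of these genes differed from siCtrl by little or not detectably. Tomm7 and Timm9 rose and Tomm6 and Nrf1 fell, each by under 1.5-fold. These 4 are 10.0% of the 40 members tested. A gene was called where its adjusted p was under 0.05 in the quasi-likelihood test of edgeR, with Benjamini-Hochberg adjustment over all 12420 genes tested. Of those 12420 genes, 12.6% were called, 5.27% higher and 7.38% lower in siNQO1, so in this fit the share of members called was near that of all genes. DESeq2 called 8 of the 40 members, against 14.5% of all genes. No member passed a fold of 2 as well, the further threshold of the paper, which 0.435% of all genes passed (0 members also by DESeq2, limma or any other test run). That share is 54 of the 12420 genes in the fit used here. The paper reported many more genes past the same thresholds in its own edgeR run, and the reason for the difference was not tested. At an unadjusted p under 0.05 there were 15 members, 7 higher and 8 lower, which is 37.5%, against 29.0% of all genes. The same number of members, 7 higher and 8 lower, had no overlap between the groups in log2 CPM, against 34.2% of all genes. By role group, each with 5 to 8 genes tested, the share called ran from 0.0% to 25.0%. The share at an unadjusted p under 0.05 ran from 0.0% to 50.0%. The median log2 fold change of the 40 was 0.04, and that of all genes was 0.01. Without its sign, the median log2 fold change was 0.14 for the members and 0.16 for all genes. The 43 members together took 0.262% to 0.264% of the counted reads in siNQO1 libraries and 0.265% to 0.273% in siCtrl libraries.

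**Figure D1:**
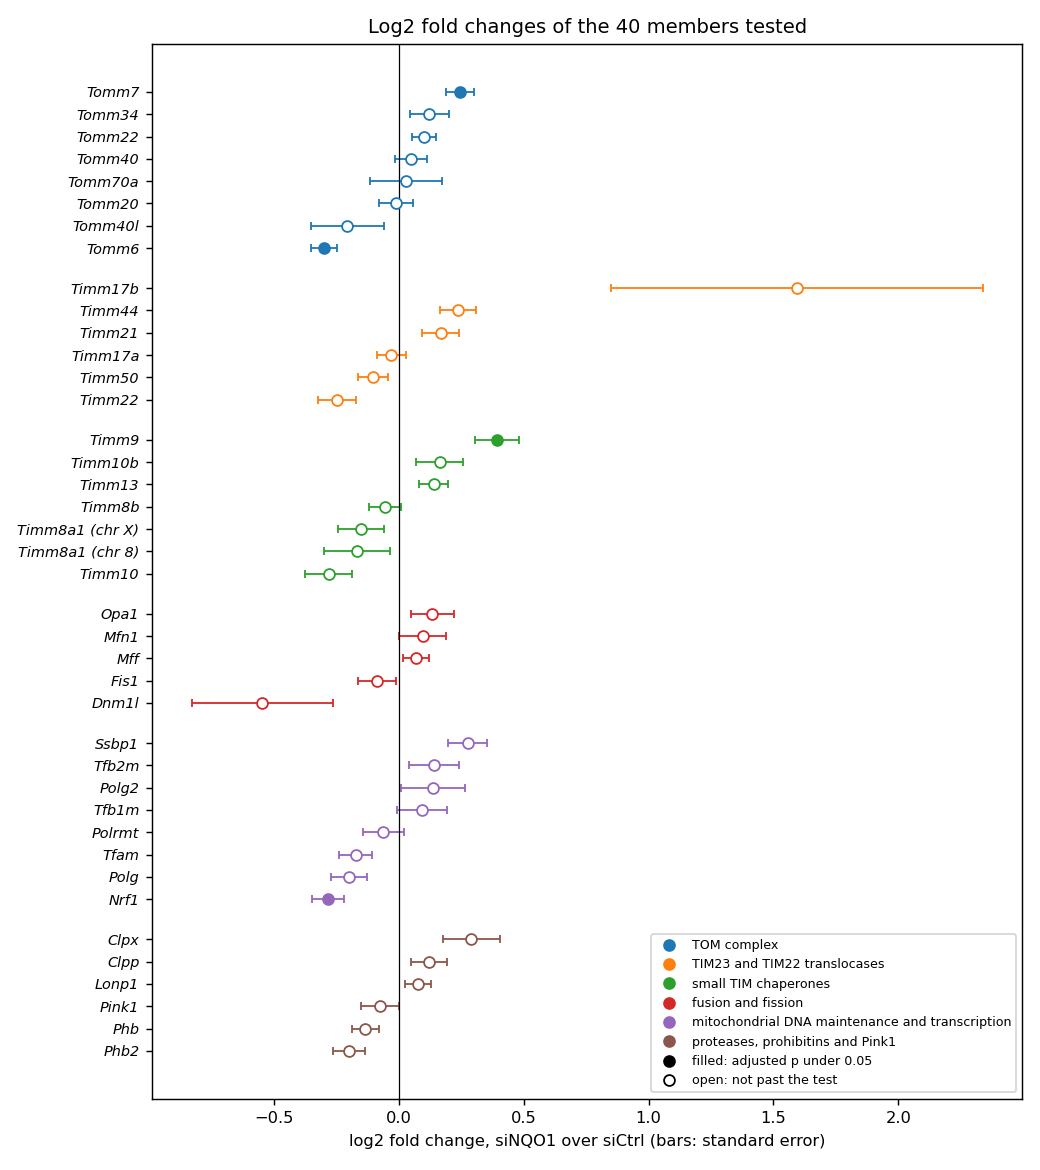
Log2 fold change, siNQO1 over siCtrl, of the 40 members tested, from edgeR, on the horizontal axis, with genes down the page in 6 role groups and bars for the standard error. Filled points are the 4 members with an adjusted p under 0.05 (Tomm7 and Timm9 to the right of 0, Tomm6 and Nrf1 to the left), and the widest bars belong to Timm17b and Dnm1l.

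In the TOM complex 1 of 8 members was higher, 1 was lower and 6 did not pass. Tomm6 and Tomm7 encode small subunits that sit beside the channel and affect how the complex assembles. Tomm6 (ENSRNOG00000046316, chromosome 9) had 340.1, 351.8 and 379.6 FPKM in replicates 1, 2 and 3 of siNQO1, against 450.0, 436.8 and 443.5 FPKM in those of siCtrl. Every siNQO1 library lay below every siCtrl library. The means were 357.2 ± 20.3 FPKM in siNQO1 and 443.4 ± 6.57 FPKM in siCtrl (SD, n = 3 each), and the log2 fold change was -0.30 (standard error, SE, 0.05, edgeR adjusted p = 0.00883). Tomm6 was the most abundant of all members by mean FPKM and the one called in each of the 18 alternative fits, with an adjusted p of at most 0.0429.

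Tomm7 (ENSRNOG00000043114, chromosome 4) moved the other way. It was at 169.7, 179.3 and 192.2 FPKM in siNQO1, against 154.5, 158.2 and 148.7 FPKM in siCtrl, so the groups did not overlap. The means were 180.4 ± 11.3 FPKM in siNQO1 and 153.8 ± 4.77 FPKM in siCtrl (SD, n = 3 each), with a log2 fold change of 0.24 (SE 0.06, edgeR adjusted p = 0.0278). This call did not hold without any 1 library other than siCtrl replicate 2. The adjusted p from edgeR was 0.0578, 0.12 and 0.136 without siNQO1 replicates 1, 2 and 3, 0.0795 without siCtrl replicate 1, 0.00325 without siCtrl replicate 2 and 0.0944 without siCtrl replicate 3. The pair was also set in a ratio, which was chosen after the values had been seen and is a description only. Tomm6 over Tomm7 in FPKM was 2.00, 1.96 and 1.98 in siNQO1 and 2.91, 2.76 and 2.98 in siCtrl. The ratios could not overlap, since neither gene overlapped between the groups and their signs were opposite.

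**Figure D2:**
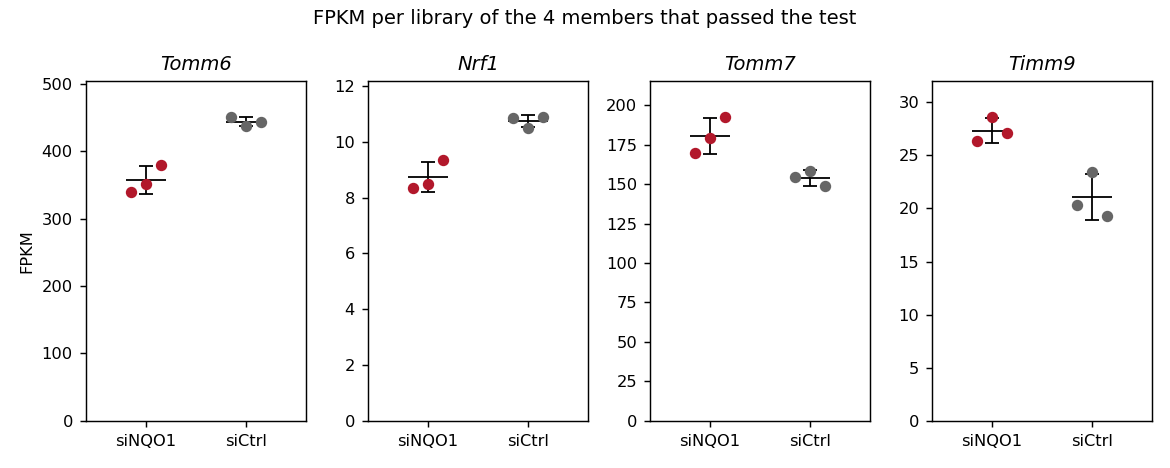
FPKM of Tomm6, Nrf1, Tomm7 and Timm9 in each library on the vertical axis, which starts at 0, with siNQO1 in red on the left and siCtrl in gray on the right of each panel; points run from replicate 1 to 3, and the black line and bars are the mean and SD of 3 libraries. In siNQO1 the points of Tomm6 and Nrf1 lie below all siCtrl points, and those of Tomm7 and Timm9 lie above them.

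The rest of the outer membrane gate did not pass the test. Tomm40, the channel itself, averaged 56.5 ± 2.54 FPKM in siNQO1 and 55.1 ± 3.30 FPKM in siCtrl (SD, n = 3 each), with a log2 fold change of 0.05 (SE 0.06). Tomm20, a receptor for presequences, was at 187.9, 173.6 and 165.4 FPKM in siNQO1, against 173.3, 192.8 and 170.6 FPKM in siCtrl. The groups overlapped, with a log2 fold change of -0.01 (SE 0.07, edgeR adjusted p = 0.924). Tomm34, a cytosolic cochaperone of import, and Tomm40l, a paralog of the channel, had log2 fold changes of 0.12 and -0.21, and their groups overlapped too (edgeR adjusted p = 0.347 and 0.392). Tomm40l was the least abundant of the 8, at 3.70 ± 0.361 FPKM in siNQO1 and 4.32 ± 0.631 FPKM in siCtrl (SD, n = 3 each).

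Of the small TIM chaperones, 7 were tested, of which 1 was higher and 6 did not pass. Timm9 (ENSRNOG00000008222, chromosome 6), which forms a ring with Timm10 that carries membrane proteins toward TIM22, was at 26.3, 28.6 and 27.1 FPKM in siNQO1, against 20.3, 23.5 and 19.3 FPKM in siCtrl. All siNQO1 libraries lay above all siCtrl libraries. The means were 27.3 ± 1.14 FPKM in siNQO1 and 21.1 ± 2.16 FPKM in siCtrl (SD, n = 3 each), and the log2 fold change was 0.39 (SE 0.09, edgeR adjusted p = 0.0238). This was the largest change among the 4 called members. Without siNQO1 replicates 1, 2 and 3 the adjusted p of Timm9 from edgeR was 0.0875, 0.138 and 0.101, and without siCtrl replicates 1, 2 and 3 it was 0.088, 0.000454 and 0.0856, so the call was lost without any library other than siCtrl replicate 2. In RefSeq, Timm9 shares bases with Kiaa0586 and Tomm20l, and whether the counting used strand is not given, so reads of overlapping genes cannot be told apart. The same limit holds for Tomm20 (with Rbm34), Tomm34 (Stk4), Tomm40l (Nr1i3), Lonp1 (Catsperd), Timm8b (Nkapd1) and Tfb1m (Cldn20 and Tiam2), and for Polg as given below.

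Timm10, the partner of Timm9 in the ring, did not pass and had the opposite sign. It was at 15.8, 19.8 and 17.0 FPKM in siNQO1, against 22.5, 21.4 and 20.8 FPKM in siCtrl. No siNQO1 library reached the lowest siCtrl library, yet the spread within siNQO1 was wide, and the log2 fold change of -0.28 (SE 0.09) had an adjusted p of 0.0884 from edgeR. Without siCtrl replicate 2 it was -0.29 and passed (edgeR adjusted p = 0.0304), and it passed without no other library (0.0597 to 0.222). The ratio of Timm9 to Timm10 in FPKM, chosen after the values had been seen, was 1.66, 1.44 and 1.59 in siNQO1 and 0.903, 1.10 and 0.932 in siCtrl. This lack of overlap adds nothing to the values above, since neither gene overlapped and their signs were opposite. Timm8a1, the rat counterpart of a human deafness and dystonia gene, is listed on chromosomes X and 8. The authors counted only uniquely mapped reads, so reads that map equally to both copies would be left out. How many reads this affects is not known. The copy on chromosome 8 had a log2 fold change of -0.17 (SE 0.13) and that on chromosome X one of -0.15 (SE 0.09), and neither passed.

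None of the 6 inner membrane translocase genes was called by edgeR, while 3 had an unadjusted p under 0.05 and DESeq2 called 1 higher and 1 lower. Timm22, the channel for carrier proteins, was at 25.2, 25.0 and 26.2 FPKM in siNQO1, against 33.4, 27.5 and 30.9 FPKM in siCtrl. The groups did not overlap, and siCtrl replicate 2 was the siCtrl library nearest to siNQO1. The log2 fold change was -0.25 (SE 0.08, edgeR adjusted p = 0.0652), and without siCtrl replicate 2 it was -0.33 (adjusted p = 0.000516). With any other library left out, Timm22 did not pass (edgeR adjusted p 0.106 to 0.175). Timm44, which tethers the import motor to the TIM23 channel, was named after its values were seen, as the higher of the pair that DESeq2 called. Its FPKM was 37.2, 43.0 and 41.2 in siNQO1, against 33.7, 37.7 and 32.5 in siCtrl, with a log2 fold change of 0.24 (SE 0.07, edgeR adjusted p = 0.0659). Timm17b, a subunit of the TIM23 channel, had the largest log2 fold change of all members, 1.59, with a standard error of 0.75 (edgeR adjusted p = 0.199). It rested on 1 library. The reads were 22, 22 and 187 in siNQO1, against 18, 29 and 21 in siCtrl, and without siNQO1 replicate 3 the log2 fold change was -0.04.

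Among the 8 genes of mitochondrial DNA maintenance and transcription, 7 did not pass, 1 was lower and none was higher. At an unadjusted p under 0.05 there were 4, and DESeq2 called 1 higher. Nrf1 (ENSRNOG00000008752, chromosome 4), the nuclear respiratory factor, was at 8.34, 8.50 and 9.35 FPKM in siNQO1, against 10.8, 10.5 and 10.9 FPKM in siCtrl. The siNQO1 libraries all lay below the siCtrl libraries. The means were 8.73 ± 0.543 FPKM in siNQO1 and 10.7 ± 0.211 FPKM in siCtrl (SD, n = 3 each), with a log2 fold change of -0.28 (SE 0.06, edgeR adjusted p = 0.0247). The call was kept without siNQO1 replicate 3 and without siCtrl replicates 1 and 2, and lost without siNQO1 replicate 1 (edgeR adjusted p = 0.0791), siNQO1 replicate 2 (0.0962) or siCtrl replicate 3 (0.087).

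Tfam, which coats mitochondrial DNA and starts its transcription, was at 25.9, 28.4 and 27.6 FPKM in siNQO1, against 29.5, 33.1 and 30.6 FPKM in siCtrl. The groups did not overlap but the difference did not pass, with a log2 fold change of -0.17 (SE 0.06, edgeR adjusted p = 0.117) that passed in none of the 18 alternatives. Polg, the catalytic subunit of the mitochondrial DNA polymerase, had 13.7 ± 0.598 FPKM in siNQO1 and 15.9 ± 1.47 FPKM in siCtrl (SD, n = 3 each), a log2 fold change of -0.20 (SE 0.07, edgeR adjusted p = 0.112). Without siCtrl replicate 2 the value for Polg was -0.26 and passed (adjusted p = 0.00456), while it did not pass with any other library left out (0.166 to 0.264). Polg shares bases in RefSeq with Fanci, whose log2 fold change was -0.22 (adjusted p = 0.0865). Polrmt, the mitochondrial RNA polymerase, overlapped between the groups, at 5.38 ± 0.175 FPKM in siNQO1 and 5.68 ± 0.436 FPKM in siCtrl (SD, n = 3 each), with a log2 fold change of -0.06 (SE 0.08).

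Ssbp1, which coats single-stranded mitochondrial DNA during copying, came nearest to the threshold without passing it. Its FPKM was 48.1, 55.0 and 53.7 in siNQO1, against 44.1, 46.9 and 39.8 in siCtrl. The groups did not overlap, and the log2 fold change was 0.28 (SE 0.08, edgeR adjusted p = 0.0504), with an adjusted p of 0.0328 to 0.0658 in the alternatives that kept all libraries. Leaving out single libraries moved it between 0.00317 (without siCtrl replicate 2) and 0.245 (without siNQO1 replicate 2). Tfb2m, a transcription factor that opens mitochondrial promoters, had a log2 fold change of 0.14 (SE 0.10) and overlapping groups. Peo1, the older symbol of Twnk and no member by the rule, was at 5.67, 6.11 and 6.10 FPKM in siNQO1, against 7.23, 6.24 and 6.61 FPKM in siCtrl, and did not pass (log2 fold change -0.15, edgeR adjusted p = 0.246).

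None of the 5 fusion and fission members tested was called by edgeR or DESeq2, none had an unadjusted p under 0.05, and in all 5 the groups overlapped. Opa1, the fusion protein of the inner membrane, averaged 12.0 ± 0.818 FPKM in siNQO1 and 11.0 ± 1.26 FPKM in siCtrl (SD, n = 3 each), with a log2 fold change of 0.13 (SE 0.09). Of the mitofusins, which fuse outer membranes, Mfn1 was at 13.3 ± 0.346 FPKM in siNQO1 and 12.6 ± 1.91 FPKM in siCtrl (SD, n = 3 each), while Mfn2 was listed at no more than 0.03 FPKM in any library. Fis1, an adaptor of the outer membrane, had a log2 fold change of -0.09 (SE 0.08). Without siCtrl replicate 2, Mfn1 was called higher (log2 fold change 0.21, edgeR adjusted p = 0.016) and Fis1 lower (-0.17, adjusted p = 0.0104). With any other library left out, neither passed (edgeR adjusted p 0.658 to 0.981 for Mfn1 and 0.409 to 0.874 for Fis1).

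Dnm1l, the GTPase that pinches mitochondria apart, had the largest negative log2 fold change of all members, -0.55, with a standard error of 0.28 (edgeR adjusted p = 0.239). It was at 2.32, 2.59 and 2.99 FPKM in siNQO1, against 2.82, 6.05 and 2.79 FPKM in siCtrl. Only siCtrl replicate 2 stood out, and without it the log2 fold change was -0.08 (adjusted p = 0.664). Its reads numbered 236 to 649 per library, the higher value in siCtrl replicate 2.

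Of the 6 genes of proteases, prohibitins and Pink1, edgeR called none, 3 had an unadjusted p under 0.05 and DESeq2 called 1 lower. That was Phb2, a ring-forming scaffold of the inner membrane, at 129.1, 127.4 and 127.7 FPKM in siNQO1, against 157.9, 135.9 and 152.0 FPKM in siCtrl. All siNQO1 libraries lay below all siCtrl libraries, and siCtrl replicate 2 was again the nearest. The log2 fold change of Phb2 was -0.20 (SE 0.06, edgeR adjusted p = 0.0715), and -0.27 without siCtrl replicate 2 (adjusted p = 0.000279). With any other library left out, Phb2 did not pass (edgeR adjusted p 0.111 to 0.204). Clpx, the unfoldase of the matrix protease, had a log2 fold change of 0.29 (SE 0.11, edgeR adjusted p = 0.131) with overlapping groups, and 0.43 without siCtrl replicate 2 (adjusted p = 0.000896). It too did not pass with any other library left out (edgeR adjusted p 0.267 to 0.42). Lonp1, the Lon protease of the matrix, was at 41.1 ± 0.197 FPKM in siNQO1 and 39.3 ± 2.31 FPKM in siCtrl (SD, n = 3 each). Pink1, the kinase that marks damaged mitochondria for removal, was at 24.4 ± 0.995 FPKM in siNQO1 and 26.0 ± 2.11 FPKM in siCtrl, and neither gene passed (log2 fold changes 0.08 and -0.08, edgeR adjusted p = 0.368 and 0.548).

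**Figure D3:**
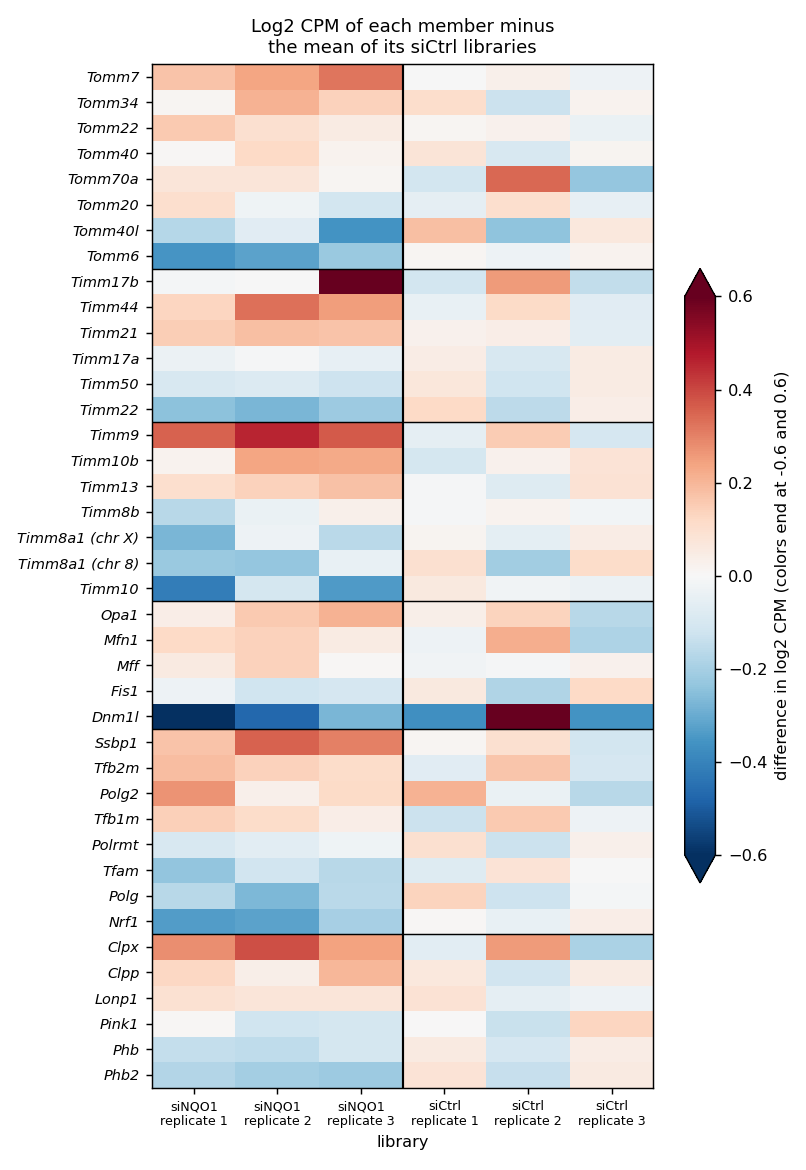
Log2 CPM (reads scaled for library size) of each of the 40 members, down the page by role, minus the mean of its 3 siCtrl libraries; columns are the 3 siNQO1 libraries on the left and the 3 siCtrl libraries on the right, red is above and blue below the siCtrl mean. Tomm6 and Nrf1 are blue and Tomm7 and Timm9 red in all 3 siNQO1 columns, while Timm17b stands out in siNQO1 replicate 3 and Dnm1l in siCtrl replicate 2.

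The 15 members tested and not named by the rule, Timm44 among them, had log2 fold changes from -0.15 to 0.24. By mean FPKM, 9 members tested were over 100 in both groups and 8 were under 10 in both. Tomm20, Tomm22, Tomm6 and Tomm7 of the outer membrane gate were among the 9, beside Timm13, Timm8b, Fis1, Phb and Phb2.

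The number of members called depended on which libraries were kept. It fell to 1 without siNQO1 replicate 1, siNQO1 replicate 2 or siCtrl replicate 3, and to 2 without siNQO1 replicate 3 or siCtrl replicate 1, with none of those called higher. In those 5 fits 4.10% to 7.97% of all genes were called, so that calls over all genes fell as well. Without siCtrl replicate 2, 6 members were higher (Clpx, Mfn1, Ssbp1, Timm44, Timm9 and Tomm7) and 9 were lower (Fis1, Nrf1, Phb, Phb2, Polg, Timm10, Timm22, Timm50 and Tomm6) of 41 tested, and they included the 4 called with all libraries. In the same fit 17.2% of all genes were called higher and 16.1% lower, and 36.6% of the members were called in either direction, against 33.3% of all genes.

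**Figure D4:**
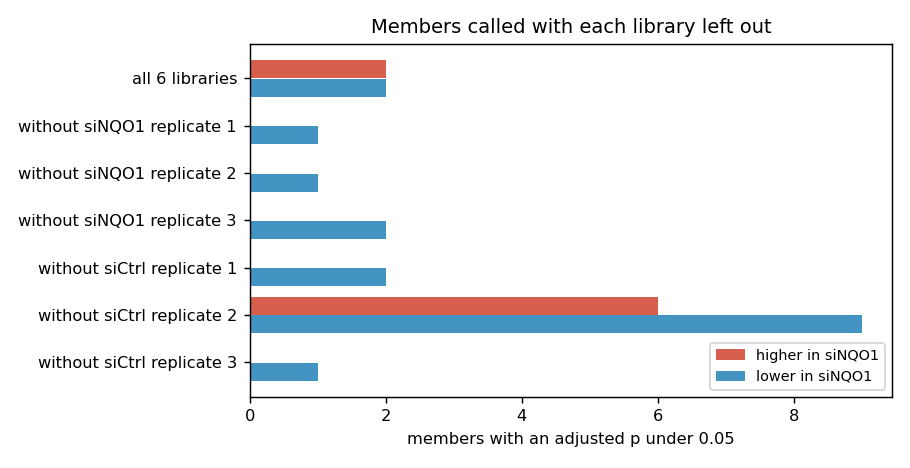
Number of members with an adjusted p under 0.05 from edgeR on the horizontal axis, higher (red) and lower (blue) in siNQO1, with all 6 libraries and with each left out in turn. With all libraries 2 were higher and 2 lower, and without siCtrl replicate 2 there were 6 and 9.

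Other genes of the same pathways, 95 symbols listed with earlier results of these data known, gave 81 rows of the table. Of the 76 tested, 2 were higher, 7 were lower and 67 did not pass, 11.8% in all, beside the 12.6% of all genes given above. At an unadjusted p under 0.05 there were 33, 7 higher and 26 lower, which is 43.4%, against 29.0% of all genes. The groups did not overlap for 34 of the 76, which is 44.7%, against 34.2% of all genes. Their median log2 fold change was -0.09, against 0.01 for all genes. The share called was 14.3% for import, 21.4% for proteostasis and mitophagy, 10.5% for mitochondrial DNA and biogenesis, and 4.5% for dynamics and cristae. At an unadjusted p under 0.05 the shares were 42.9%, 57.1%, 21.1% and 54.55%, in that order. DESeq2 called 14.5% of all genes.

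In the import list 3 of 21 were lower and none was higher (9 at an unadjusted p under 0.05, and 4 lower by DESeq2). Chchd4, the oxidoreductase that folds small TIM proteins, was at 9.66, 7.87 and 7.50 FPKM in siNQO1, against 14.2, 12.2 and 12.8 FPKM in siCtrl. The groups did not overlap, and the log2 fold change was -0.63 (SE 0.12, edgeR adjusted p = 0.0129). The call of Chchd4 was lost without siNQO1 replicate 2 (adjusted p = 0.0707) or 3 (0.0588), and a second identifier of the gene, with 43 to 89 reads per library, did not pass at -0.35. Immp1l, a peptidase of the inner membrane, and Mipep, a peptidase of the matrix, had log2 fold changes of -0.33 and -0.22 (edgeR adjusted p = 0.041 and 0.0486). Immp1l did not pass without siNQO1 replicate 1, 2 or 3 or siCtrl replicate 3 (0.102, 0.15, 0.123 and 0.12), and Mipep passed a leave-out only without siCtrl replicate 2 (0.0815 to 0.124 without the others). With all libraries kept, Mipep also did not pass under upper-quartile scaling (0.0657), with no filter on low counts (0.0647) or in either other edgeR test, exact (0.0783) and likelihood ratio (0.0759). Hspa9, the chaperone of the import motor, did not pass, at 33.9 ± 1.99 FPKM in siNQO1 and 39.6 ± 4.44 FPKM in siCtrl (SD, n = 3 each; log2 fold change -0.21, edgeR adjusted p = 0.111).

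Of 14 genes of proteostasis and mitophagy, 3 were lower and none was higher (8 at an unadjusted p under 0.05, and DESeq2 called 1 higher). Spg7, a subunit of the matrix-facing AAA protease whose human counterpart is mutated in a spastic paraplegia, was at 13.9, 13.5 and 13.9 FPKM in siNQO1, against 19.2, 17.9 and 20.1 FPKM in siCtrl. The siNQO1 libraries were all below the siCtrl libraries and close to each other. The log2 fold change of Spg7 was -0.46 (SE 0.06, edgeR adjusted p = 0.00273), and it was called in each of the 18 alternatives. Trap1, a mitochondrial chaperone of the HSP90 family, fell to 34.7 ± 0.582 FPKM in siNQO1, against 42.3 ± 2.43 FPKM in siCtrl (log2 fold change -0.27, edgeR adjusted p = 0.0184), and Sqstm1, the autophagy receptor p62, fell to 339.5 ± 3.40 FPKM in siNQO1, against 408.7 ± 29.2 FPKM in siCtrl (log2 fold change -0.25, adjusted p = 0.0299; SD, n = 3 each). Trap1 did not pass without siNQO1 replicate 2 (0.0615), siNQO1 replicate 3 (0.0501) or siCtrl replicate 3 (0.0729), nor Sqstm1 without siNQO1 replicate 1, 2 or 3 or siCtrl replicate 3 (0.067, 0.0852, 0.0713 and 0.0943). Htra2, a protease of the space between the membranes, had a log2 fold change of -0.19 (edgeR adjusted p = 0.102) and no overlap between the groups.

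In the list of mitochondrial DNA and biogenesis 1 of 19 was higher and 1 was lower (4 at an unadjusted p under 0.05). Top1mt, the mitochondrial topoisomerase, rose, at 8.01, 8.26 and 8.06 FPKM in siNQO1, against 7.23, 5.70 and 5.91 FPKM in siCtrl (log2 fold change 0.38, SE 0.10, edgeR adjusted p = 0.0435). Lig3, a ligase that also seals mitochondrial DNA, fell by 0.26 on the log2 scale (SE 0.06, edgeR adjusted p = 0.0268). With 1 library left out, Top1mt kept its call only without siCtrl replicate 1 or 2 (0.122 to 0.15 without the others), and Lig3 only without siCtrl replicate 2 (0.0502 to 0.0876 without the others). With all libraries kept, limma on log2(FPKM + 1) called neither Top1mt (0.0529) nor Lig3 (0.0654), and limma on log2(FPKM + 0.1) did not call Lig3 either. Ppargc1a, a coactivator of mitochondrial biogenesis, had 0 or 1 reads per library and was not tested. Ppargc1b of the same list, named after its values were seen, had 26 to 61 reads per library and no overlap between the groups. Its log2 fold change was -0.89 (SE 0.25, edgeR adjusted p = 0.0521). It was called lower with library size alone, with no filter, with a CPM over 1 and in the exact and likelihood ratio tests, but not by DESeq2 or limma. In the list of dynamics and cristae 1 of 22 was higher, Chchd3 of the cristae junction complex, and none was lower (12 at an unadjusted p under 0.05, 1 of them higher, and 1 lower by DESeq2). Chchd3 was at 113.6 ± 1.74 FPKM in siNQO1 and 99.3 ± 5.33 FPKM in siCtrl (SD, n = 3 each; log2 fold change 0.21, edgeR adjusted p = 0.0361) and lost its call without any library other than siCtrl replicate 2 (0.0897 to 0.172).

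The 13 protein genes of the mitochondrial genome, whose transcripts Polrmt makes and Tfam starts, had log2 fold changes from 0.05 to 0.50, with a median of 0.35, and edgeR called none. At an unadjusted p under 0.05 there were 3, Mt-nd2 was called higher in 2 other edgeR tests, exact and likelihood ratio, with no filter on low counts and in limma voom, and DESeq2 called none. Genes of this genome took 6.21%, 6.53% and 6.01% of the counted reads in siNQO1, against 4.25%, 6.40% and 5.19% in siCtrl. The groups overlapped, since siCtrl replicate 2 lay within the range of siNQO1. The difference of the means was 0.97 percentage points, and an exact two-sided permutation test gave p = 0.30, where 3 libraries against 3 cannot go below 0.10. The difference was 0.46 points without siCtrl replicate 1 and 1.53 points without siCtrl replicate 2. In the edgeR fit without siCtrl replicate 2, 11 of the 13 genes were called higher, as were 17.2% of all genes. Mt-nd6 was at 178.2, 155.9 and 156.8 FPKM in siNQO1, against 16.1, 199.2 and 142.2 FPKM in siCtrl, so siCtrl replicate 1 was far below the rest.

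**Figure D5:**
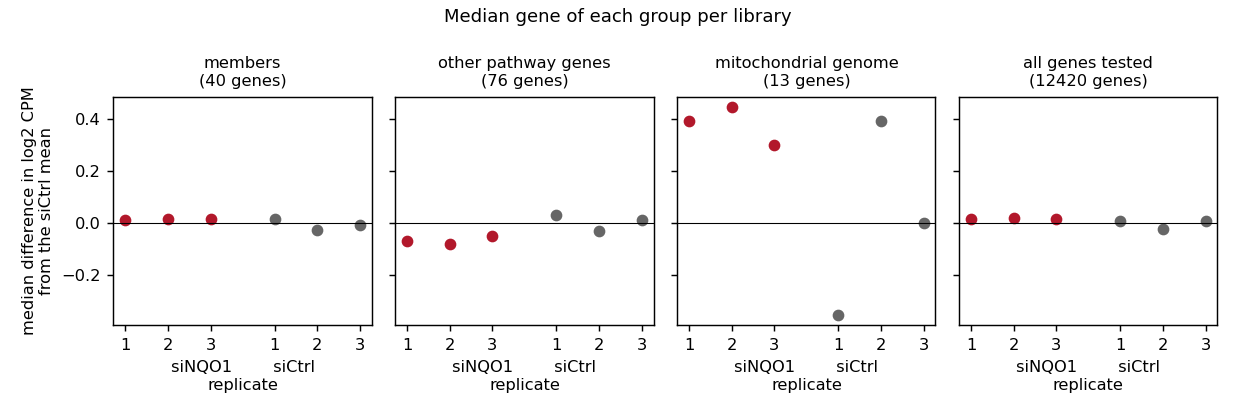
Median difference in log2 CPM from the siCtrl mean of each gene, on the vertical axis, for the members, the other pathway genes, the protein genes of the mitochondrial genome and all genes tested, in each siNQO1 library (red, left) and siCtrl library (gray, right). The members lie between -0.03 and 0.02 in all 6 libraries, while the mitochondrial genome runs from 0.30 to 0.45 in siNQO1 and from -0.36 to 0.39 in siCtrl.

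The median member differed little from its siCtrl mean in any library. In log2 CPM it lay 0.01, 0.01 and 0.02 above that mean in replicates 1, 2 and 3 of siNQO1, and its values were 0.01, -0.03 and -0.01 in those of siCtrl. For the 13 mitochondrial genome genes the medians were 0.39, 0.45 and 0.30 in siNQO1, against -0.36, 0.39 and 0.00 in siCtrl, so the siCtrl libraries differed among themselves by more than siNQO1 differed from their mean.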

How the data were processed

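The members and gene lists were chosen with earlier results of these data known. The authors aligned paired reads from a strand-specific kit to RGSC6 with TopHat2 and kept uniquely mapped reads. The deposited counts are whole reads per gene, not normalized, and the FPKM values were calculated by the authors. How reads were counted, with or without strand, is not given in the sources used here. Counts were fitted in R 4.3.3 with edgeR 4.0.16 (filterByExpr, TMM, glmQLFit and glmQLFTest, no block) and adjusted by Benjamini-Hochberg over 12420 genes, with a common biological coefficient of variation of 0.109. Log2 CPM used a prior count of 2. Standard errors of log2 fold changes were not given by the fit. Each was taken as the absolute log2 fold change divided by the square root of the F statistic of the edgeR test. Named were all members called, 12 genes fixed by name of which Timm23 had no row, the 2 with the largest change per role group at an average log2 CPM over 0, and called pathway genes. Alternatives were other scalings, filters and tests, including DESeq2 1.42.0 and limma 3.58.1 on counts and on log2 FPKM (pseudocount 1 or 0.1), a replicate block, and leaving out each library. Permutation used scipy 1.17.1. RefSeq tables gave names, overlaps and promoters. Splicing was not analysed here.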

Additional observations from a re-analysis of the deposited data

How the results depend on the processing

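The same 4 members were called, with no other, under RLE and upper-quartile scaling, in both other edgeR tests (exact, likelihood ratio) and in limma on log2(FPKM + 1) and log2(FPKM + 0.1). With no filter on low counts 4 members were higher, with library size alone or a CPM over 1 in at least 3 libraries 4 were lower, and DESeq2 called 4 higher and 4 lower, each time with the 4 of the fit reported among them. The members called were 10.0% in the fit reported, against 12.6% of all genes, 14.0% with no filter against 8.97%, and 8 of 40 by DESeq2 against 14.5%. They were 15.0% with library size alone against 13.6%, 15.4% with a CPM over 1 against 16.3%, and 12.5% in limma voom against 13.2%. Of the other pathway genes, 1 was higher in limma on log2(FPKM + 1), 11 were lower with library size alone and 13 were lower with a CPM over 1. These fits called 12.3%, 13.6% and 16.3% of all genes, in that order. Leaving out 1 library gave 0 to 6 members higher and 1 to 9 lower, 0 to 9 other pathway genes higher and 1 to 24 lower, and a median member between -0.00739 and 0.0437, which was 0.0144 with a CPM over 1 in at least 3 libraries against 0.0392 in the fit reported. The fit without siCtrl replicate 2 lay at the upper end of each count. It called 33.3% of all genes, against 4.10% to 7.97% in the other leave-out fits. The difference in the share of mitochondrial genome reads ran from 0.457 to 1.53 points. Tomm20, at -0.01 in the fit reported, changed sign without siNQO1 replicate 3 (0.024) and without siCtrl replicate 2 (0.0384), within a range of -0.0868 to 0.0384, and Timm17b without siNQO1 replicate 3, in a range of -0.0371 to 1.98. The causes were not tested, except that leaving out a library leaves fewer samples. Whether the numbers pair the libraries is not known. Libraries with the same number had deviations from the group means that correlated at -0.04, 0.16 and 0.06, and not every library correlated best with its own number. Correlations this weak cannot decide it. With the replicate block 3 members were higher and 2 lower, and 0 other pathway genes were higher and 4 lower. That fit called 12.5% of the members and 10.9% of all genes. Top1mt (adjusted p = 0.0546), Lig3 (0.0519), Immp1l (0.0713), Chchd3 (0.0502) and Mipep (0.0843) did not pass with the block, and Mt-nd2 was called higher. Of 647 values for 36 named genes under the alternatives, 568 kept their direction and side of the threshold, 57 lost and 19 gained a call and 3 changed sign. Low counts kept Mfn2, Timm8a2, the second identifier of Mff and Ppargc1a out of the fit reported, and Timm17b had 18 reads in its lowest library. Why these counts were low was not tested.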
